A study of Mus musculus with 12 samples.

Results

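Heat shock chaperones are the proteins that fold new chains, refold damaged ones and hold signalling proteins in a form that can be activated. The 10 genes described here were chosen by name from the 28999 genes of the deposited table: the HSP70 genes Hspa1a, Hspa1b and Hspa8, the HSP110 gene Hsph1, the HSP40 gene Dnajb1, the HSP90 genes Hsp90aa1 and Hsp90ab1, the chaperonin genes Hspd1 and Hspe1, and the transcription factor gene Hsf1. All 10 were present with counts in every library and passed the filter on low counts. Hspd1 and Hspe1 encode chaperonins of the mitochondrial matrix, and Hsf1 is a regulator, so the set is wider than cytosolic chaperones alone.

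The libraries came from mouse bone marrow cells that the labels call LT-HSCs, long-term haematopoietic stem cells, which can renew the blood for life. Groups were Trim47-/- mice treated with 5-fluorouracil (5-FU, a drug that kills dividing cells) for 10 days, wild type mice treated in the same way, untreated Trim47-/- mice and untreated wild type mice, with 3 libraries each. Trim47 encodes a ubiquitin ligase of the tripartite motif family, and the genotype label gives it only as a mutant. The sources used here do not give age, sex, strain, the deleted segment or the sorting markers.

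In resting cells the constitutive forms of these chaperones (Hspa8, Hsp90ab1 and the chaperonins) are made all the time, while Hspa1a and Hspa1b are the classical inducible forms. HSF1 is held inactive by chaperones, and when unfolded proteins draw the chaperones away it forms trimers and binds heat shock elements, repeats of the unit nGAAn in alternating orientation, upstream of the chaperone genes. In blood stem cells this system is known as a guard of protein quality, and its inducible genes are also known to rise while tissue is dissociated and cells are sorted.

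Total counts ran from 13919649 to 20703198 per library. Trim47 itself was present in every library, at 10.1, 12.2 and 11.6 CPM (counts scaled to the library size after TMM scaling) in Trim47-/- after 5-FU against 38.1, 33.3 and 34.7 CPM in wild type after 5-FU, and at 23.7, 18.9 and 16.6 CPM in untreated Trim47-/- against 24.6, 23.8 and 24.7 CPM in untreated wild type. Counts per gene cannot check a deletion whose position is not given, and the groups are named as labelled. Of the markers of long-term stem cells, Procr (19.0 to 46.3 CPM) and Kit (295 to 498 CPM) were present throughout, Slamf1 lay between 1.59 and 16.7 CPM, and Flt3 (443 to 923 CPM), Cd34 (667 to 777 CPM) and Cd48 (52.0 to 108 CPM), which are low on such cells in adult mice, were present in all 12 libraries. The labels name no separate animals, and the p-values therefore rest on spread among libraries that may be technical repeats. In bulk RNA, fewer cells of a type and less RNA per cell cannot be told apart.

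Promoters of 6 of the 10 genes were in the RefSeq table for GRCm38.p6, which holds 250 bases before and 50 after each start site. They were searched on both strands for an inverted pair of heat shock units with 2 bases between, GAANNTTC or TTCNNGAA, and for 3 alternating units, GAANNTTCNNGAA or TTCNNGAANNTTC, which contain overlapping pairs. A pair was found in 5 of the 6 (Hspa1a, Hspa1b, Hspd1, Hspe1 and Hsph1), against 17.0% of 27025 genes (15.1% of 32851 windows), and 3 alternating units in 3 of the 6 (Hspd1, Hspe1 and Hsph1), against 0.66% of genes. Dnajb1 had no match in either of its windows (2 start sites). The chaperone genes were chosen as known targets of heat shock factors, so an excess over all genes was built into the choice and tests nothing. The 5 genes with a pair are also not separate cases. Hspa1a and Hspa1b are nearly identical upstream, and Hspd1 and Hspe1 share the same run of bases. The bases upstream of Hspa1a (chr17:34972157-34972406, minus strand) and Hspa1b (chr17:34959239-34959488, minus strand) are shown because these neighbouring genes had the largest response to 5-FU and cannot be fully told apart. The stretches of Hspe1 (chr1:55088053-55088082, plus strand) and Hsph1 (chr5:149636351-149636380, minus strand) hold the matches upstream of their starts; the 3 alternating units of Hsph1 lie after its start and are not shown. Capitals mark the matched bases.
Hspa1a: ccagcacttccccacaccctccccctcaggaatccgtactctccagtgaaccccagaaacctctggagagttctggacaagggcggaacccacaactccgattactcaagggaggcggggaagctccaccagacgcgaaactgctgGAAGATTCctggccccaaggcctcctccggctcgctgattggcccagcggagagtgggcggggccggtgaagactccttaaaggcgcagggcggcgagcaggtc
Hspa1b: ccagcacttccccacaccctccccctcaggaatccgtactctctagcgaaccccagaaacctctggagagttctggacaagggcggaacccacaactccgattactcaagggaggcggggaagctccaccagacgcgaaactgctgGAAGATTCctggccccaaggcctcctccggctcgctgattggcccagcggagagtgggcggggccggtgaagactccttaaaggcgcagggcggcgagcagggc
Hspe1: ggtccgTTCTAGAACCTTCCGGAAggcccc
Hsph1: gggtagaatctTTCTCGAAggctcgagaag

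The upstream bases of Hspa1a and Hspa1b were identical at 247 of 250 positions. Counted from the 5′ end, with the base of Hspa1a first, the differences were C44T, T47C and T249G, all outside the matched pair, which lay 104 to 97 bases before each start. Hspd1 and Hspe1 stand head to head on chromosome 1, and the run of alternating units shown for Hspe1, at 55088059 to 55088076, also lies within an upstream window of Hspd1, on the opposite strand. These matches describe letters, not bound sites.

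Levels of different genes were compared per kilobase of non-overlapping exon. Hsp90ab1, the constitutive HSP90, stood highest in every group, at 1294 ± 35.4 CPM per kb in Trim47-/- after 5-FU, 1105 ± 6.29 in wild type after 5-FU, 1123 ± 10.4 in untreated Trim47-/- and 1108 ± 4.68 in untreated wild type (SD, n = 3 each). Hspa8, the constitutive HSP70, came next at 277 to 352 CPM per kb, followed by Hsp90aa1 at 161 to 193 CPM per kb. The order below them depended on treatment. Dnajb1, the HSP40 that delivers clients to HSP70 and starts its ATP cycle, stood in place 5 after 5-FU (78.6 ± 0.82 CPM per kb in Trim47-/- and 101 ± 0.62 in wild type) and in place 4 in untreated cells (135 ± 0.48 in Trim47-/- and 115 ± 1.64 in wild type), and changed places with Hspd1. In untreated wild type these neighbours did not differ beyond their spread, Hspd1 being at 114 ± 1.67 CPM per kb. Hspe1 was at 49.0 to 67.1 and Hspa1b at 18.9 to 45.1 CPM per kb, and Hsf1, a regulator, was lowest at 5.50 to 7.19 CPM per kb. The order depends on the length used, which spans all annotated transcripts, 16 for Hsf1 and 1 for Hspa1a. Not divided by length, Hsf1 averaged more than Hspa1a after 5-FU and less untreated. After 5-FU these were 51.0 against 29.1 CPM in Trim47-/- and 39.1 against 31.3 CPM in wild type. By deposited FPKM, Hsf1 was also lowest, but Dnajb1 stood in place 2 in untreated Trim47-/-. After 5-FU in wild type, Hsph1 (10.6 ± 0.46) and Hspa1a (10.6 ± 0.92) could not be ordered. Together the 10 genes took 0.706 ± 0.008% of counts in Trim47-/- after 5-FU, 0.631 ± 0.013% in wild type after 5-FU, 0.624 ± 0.006% in untreated Trim47-/- and 0.617 ± 0.002% in untreated wild type.

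**Figure D1:**
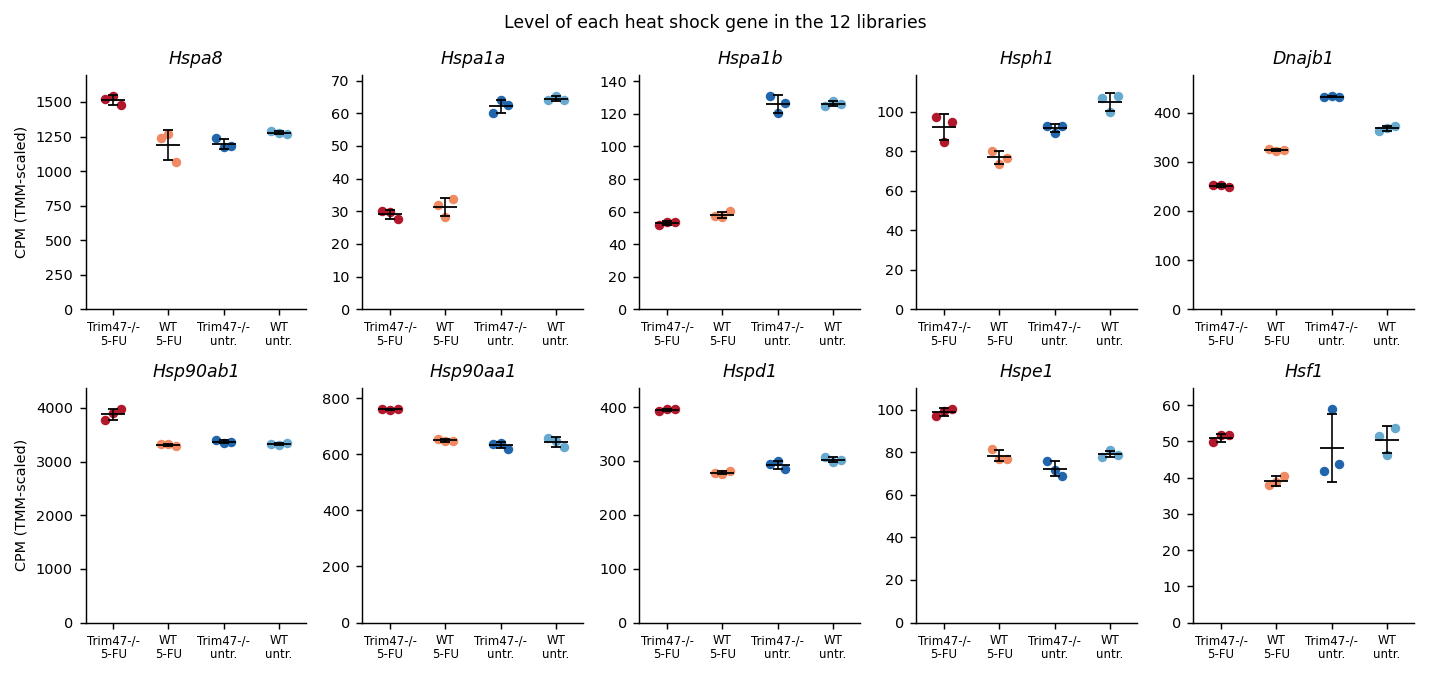
Level of each of the 10 genes (y axis, TMM-scaled CPM, from 0) in the 12 libraries, by group (x axis), with 1 point per library and black bars for mean ± SD of 3 libraries. Hspa1a and Hspa1b were low in all 6 libraries after 5-FU, and Hspd1, Hspe1, Hspa8, Hsp90aa1 and Hsp90ab1 were highest in the 3 Trim47-/- libraries after 5-FU.

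After 5-FU, 7 of the 10 genes were higher and 2 were lower in Trim47-/- than in wild type LT-HSCs, all by less than 1.5-fold, by edgeR's quasi-likelihood test with a Benjamini-Hochberg adjusted p under 0.05. That is 9 of 10 called, beside 54.7% of the 16319 genes tested (27.2% higher and 27.6% lower, and 20.2% by at least 1.5-fold). The genes that were higher encode the constitutive HSP70, both HSP90 forms, the mitochondrial chaperonin, HSP110 and HSF1, and those that were lower were Dnajb1 and Hspa1b. In untreated mice 3 of the 10 passed, with 1 higher and 2 lower and none by 1.5-fold, a share near that of all genes at 33% (17.6% higher, 15.4% lower and 8.41% by at least 1.5-fold). That count was 1 without untreated wild type replicate 3, 5 without wild type 5-FU replicate 3 and 5 with near-identical copies summed into their gene. The median log2 difference of the 10 was 0.25 after 5-FU (0.00 over all genes) and -0.05 in untreated mice (0.03 over all genes). The groups did not overlap for 9 of the 10 genes after 5-FU (61.3% of all genes) and for 5 in untreated mice (47.9%).

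The response to 5-FU differed between genotypes for 8 of the 10 genes. In Trim47-/- mice 5 of the 10 genes were higher and 3 lower after 5-FU than in untreated mice, beside 60.5% of genes called (29.6% higher and 30.8% lower). Of these 3 fell by at least 1.5-fold, beside 26.2% of genes that changed by that size. In wild type mice 0 were higher and 6 lower, beside 50.6% of genes called, 25.2% higher and 25.4% lower (DESeq2 also gave 0 higher, as did an unadjusted p under 0.05 in edgeR, and scaling by library totals gave 2, Hsp90aa1 and Hsp90ab1). Tested as an interaction, the 5-FU response in Trim47-/- minus that in wild type, 7 genes had a positive and 1 a negative value past the threshold, beside 54.9% of genes called (26.4% positive and 28.5% negative). The median response was 0.14 in Trim47-/- (-0.01 over all genes) and -0.15 in wild type (0.01 over all genes). Groups did not overlap for 8 of the 10 genes in Trim47-/- (66.6% of all genes) and for 7 in wild type (58.9%). The untreated and 5-FU groups enter several of these comparisons, so the comparisons are not independent of each other.

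**Figure D2:**
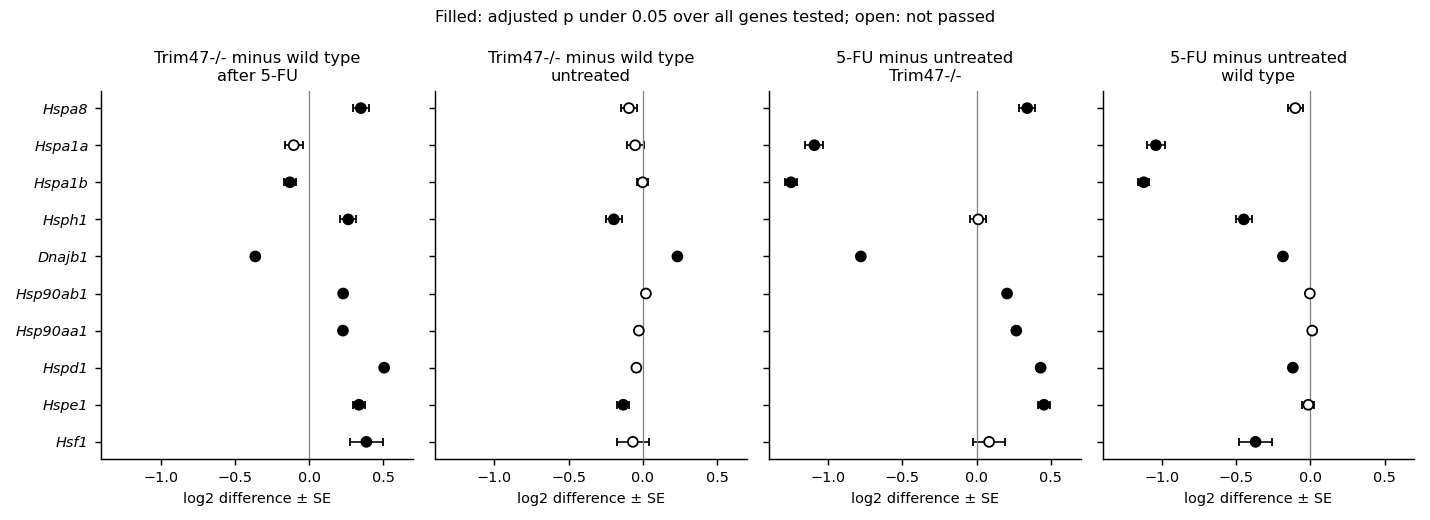
Log2 difference ± SE (x axis) of each gene (y axis) in 4 comparisons from 1 edgeR fit of 12 libraries; filled points passed an adjusted p under 0.05 over 16319 genes. Hspa1a and Hspa1b lie near -1 in both responses to 5-FU, and 5 filled points lie right of 0 for 5-FU in Trim47-/-, against none in wild type.

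Hspa8, the constitutive HSP70 that folds nascent chains and uncoats clathrin vesicles, had 1520.0, 1544 and 1479 CPM in Trim47-/- after 5-FU, against 1242, 1265 and 1063 CPM in wild type after 5-FU. Untreated, it had 1238, 1171 and 1179.7 CPM in Trim47-/- against 1287, 1278 and 1267 CPM in wild type. The Trim47-/- libraries after 5-FU stood above all 9 others, and wild type replicate 3 after 5-FU stood below its group by far more than counting noise (chi-square per degree of freedom 165 over the 3 libraries). Hspa8 was higher by log2 0.35 (SE 0.05) in Trim47-/- than in wild type after 5-FU, with an adjusted p of 0.000164 in edgeR's test. In Trim47-/- it rose by 0.34 (SE 0.05) after 5-FU, adjusted p = 0.000154, while in wild type the value was -0.10 (SE 0.05), adjusted p = 0.127. The interaction was 0.44 (SE 0.07), adjusted p = 0.000356. Without the low library, the difference after 5-FU was 0.25 (adjusted p = 1.9e-05).

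Hspa8 is also copied in processed pseudogenes, and its counts cannot be fully separated from theirs. Gm15459, which shares 34.6% of the 50-base windows of Hspa8, held 88.8% as many counts as Hspa8 over the 12 libraries, and Gm8355, with 22.7%, held 25.4%. Gm15459 averaged 1371 ± 28.5 CPM in Trim47-/- after 5-FU, 1129 ± 20.5 CPM in wild type after 5-FU, 1028 ± 3.88 CPM in untreated Trim47-/- and 1079 ± 12.4 CPM in untreated wild type. Its order of groups was not that of Hspa8: in wild type it rose by 0.07 (SE 0.02) after 5-FU, adjusted p = 0.0101, where Hspa8 did not pass. In Trim47-/- it rose by 0.41 (SE 0.02). With 5 copies summed into Hspa8, the difference between genotypes after 5-FU was 0.31 (adjusted p = 4.73e-07 in edgeR's test) and that in untreated mice was -0.09 (adjusted p = 0.0123), which did not pass for Hspa8 alone (-0.09, adjusted p = 0.194).

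Hspa1a and Hspa1b, the stress-inducible HSP70 genes, fell with 5-FU in both genotypes. Hspa1b had 51.9, 53.5 and 53.7 CPM in Trim47-/- after 5-FU and 57.2, 56.5 and 60.2 CPM in wild type after 5-FU. Untreated, it had 131, 120.4 and 127 CPM in Trim47-/- and 125, 128 and 126 CPM in wild type. All 6 libraries after 5-FU lay below all 6 untreated ones. It fell by 1.25 (SE 0.04) on the log2 scale after 5-FU in Trim47-/- and by 1.12 (SE 0.04) in wild type, with adjusted p-values of 2.13e-10 and 6.58e-10 in edgeR's test.

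Hspa1a had 30.1, 29.7 and 27.6 CPM in Trim47-/- after 5-FU and 31.9, 28.3 and 33.7 CPM in wild type after 5-FU. Untreated, it had 60.0, 64.0 and 62.5 CPM in Trim47-/- and 64.0, 65.3 and 64.1 CPM in wild type. It fell by 1.09 (SE 0.06) in Trim47-/- and by 1.04 (SE 0.06) in wild type, with adjusted p-values of 3.16e-08 and 6.87e-08 in edgeR's test. Both genes changed by more than 1.5-fold in each genotype, and these were the only such changes in wild type among the 10 genes, where 18.8% of all genes passed with that size. The interaction did not pass for Hspa1a (-0.05, SE 0.08, adjusted p = 0.631) or for Hspa1b (-0.13, SE 0.05, adjusted p = 0.0586). After 5-FU Hspa1b was lower in Trim47-/- than in wild type by 0.13 (SE 0.04), adjusted p = 0.0126, with no overlap between groups, and the value of Hspa1a was -0.10 (SE 0.06), adjusted p = 0.176. The Hspa1b call was lost in the DESeq2 test (-0.13, adjusted p = 0.0504) and without Trim47-/- 5-FU replicate 1 (-0.11, adjusted p = 0.0544).

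Hspa1a and Hspa1b lie beside each other on chromosome 17 (34969190 to 34972156 and 34956436 to 34959238 of GRCm38, minus strand, 1 exon each), and 58.8% of the 50-base windows of Hspa1a are also in Hspa1b. Hspa1a also overlaps Gm20481 on the opposite strand. Reads from shared stretches could go to either gene, and the ratio of Hspa1b to Hspa1a counts ran from 1.72 to 2.19 over the 12 libraries. Summed into 1 row, the pair fell by 1.20 in Trim47-/- and by 1.09 in wild type after 5-FU, and was lower by 0.12 in Trim47-/- than in wild type after 5-FU (adjusted p = 0.0112 in edgeR's test). Hspa1l, a related gene with its main known expression in testis, shares 7.95% of the windows of Hspa1a and was at 1.54 ± 0.46 CPM in Trim47-/- after 5-FU, 2.04 ± 0.20 in wild type after 5-FU, 4.61 ± 0.37 in untreated Trim47-/- and 4.13 ± 0.11 in untreated wild type.

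Dnajb1, whose protein is the stress-inducible HSP40 partner of HSP70, moved with genotype in opposite directions in treated and untreated mice. It had 253, 254 and 249 CPM in Trim47-/- after 5-FU, against 326, 322 and 324 CPM in wild type after 5-FU. Untreated, it had 432, 434 and 431 CPM in Trim47-/-, against 362, 369.8 and 373 CPM in wild type. No groups overlapped. Dnajb1 was lower in Trim47-/- than in wild type after 5-FU by 0.36 (SE 0.02), adjusted p = 1.50e-08, and higher in untreated Trim47-/- by 0.23 (SE 0.02), adjusted p = 1.66e-06, in edgeR's test. After 5-FU it fell by 0.78 (SE 0.02) in Trim47-/- and by 0.19 (SE 0.02) in wild type. The interaction of -0.60 (SE 0.02), adjusted p = 4.18e-09, was the only negative one past the threshold among the 10 genes, and it ran from -0.69 to -0.58 over the alternatives tried, losing its call only in the test against a 1.5-fold change.

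Genes of the immediate early response, which are also raised by cell dissociation, moved in the same libraries. The summed level of 29 such genes in the table was 19791 to 20237 CPM in Trim47-/- after 5-FU, 33098 to 33251 CPM in wild type after 5-FU, 55813 to 56291 CPM in untreated Trim47-/- and 55673 to 56183 CPM in untreated wild type. Relative to the untreated wild type mean, that sum was 35.8 ± 0.4% in Trim47-/- after 5-FU and 59.3 ± 0.15% in wild type after 5-FU, while Hspa1a and Hspa1b together were at 43 ± 0.51% and 46.8 ± 2.38%, and Dnajb1 at 68.4 ± 0.71% and 87.9 ± 0.54%, in the same order of groups. None of the 29 was at 0 in any group. Fos, an AP-1 subunit, averaged 768 ± 7.24 CPM in Trim47-/- after 5-FU, 2999 ± 8.57 CPM in wild type after 5-FU, 5073 ± 26.7 CPM in untreated Trim47-/- and 4697 ± 86.2 CPM in untreated wild type. Of 28 tested, 5 were higher and 21 lower in Trim47-/- than in wild type after 5-FU (median -0.64). Of all genes, 27.2% were higher and 27.6% lower (median -0.000372), so the share of higher genes was below that of all genes. The part of this response in the fall of Hspa1a, Hspa1b and Dnajb1 was not tested.

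**Figure D3:**
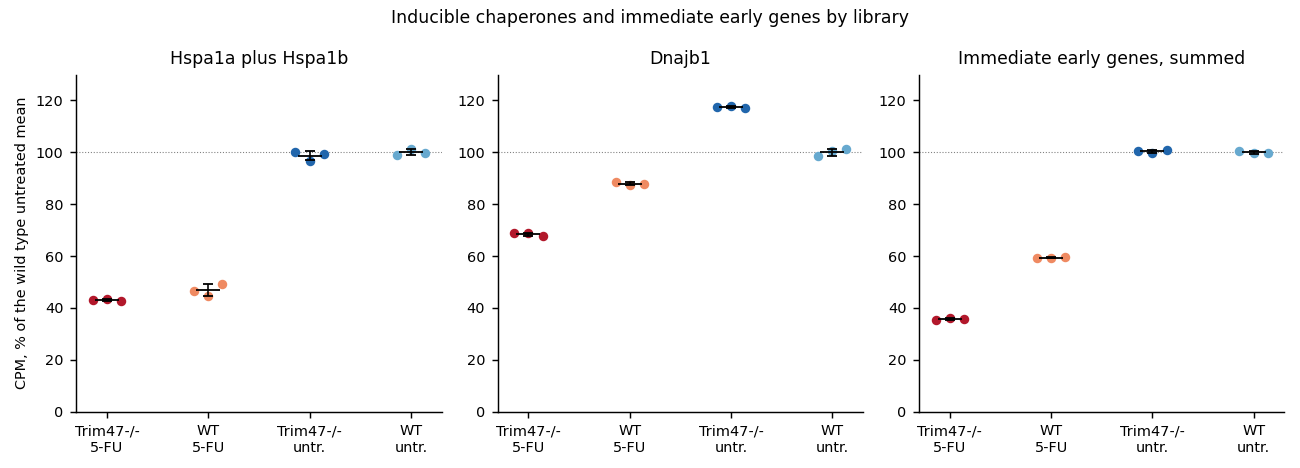
Level in each library as a percent of the untreated wild type mean (y axis) for Hspa1a plus Hspa1b, for Dnajb1 and for 29 immediate early genes summed, by group (x axis), with 1 point per library and black bars for mean ± SD. The immediate early sum and Dnajb1 separate Trim47-/- from wild type after 5-FU, at 35.8% against 59.3% and at 68.4% against 87.9%, more widely than Hspa1a plus Hspa1b, at 43% against 46.8%.

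Hsph1 encodes HSP110, which exchanges the nucleotide of HSP70 and acts with it to pull apart aggregates. It had 97.2, 84.5 and 94.6 CPM in Trim47-/- after 5-FU, against 80.3, 73.7 and 76.4 CPM in wild type after 5-FU, and 92.8, 89.2 and 92.5 CPM in untreated Trim47-/-, against 107, 99.6 and 108 CPM in untreated wild type. The wild type groups lay apart from each other and the Trim47-/- groups overlapped. In wild type Hsph1 fell by 0.45 (SE 0.05) after 5-FU, adjusted p = 3.31e-05, and in Trim47-/- the value was 0.01 (SE 0.05), adjusted p = 0.885, in edgeR's test. It was higher in Trim47-/- than in wild type after 5-FU by 0.26 (SE 0.05), adjusted p = 0.00158. In untreated mice it was lower in Trim47-/- by 0.20 (SE 0.05), adjusted p = 0.0152, a call that did not hold without untreated Trim47-/- replicate 2 or untreated wild type replicate 1 or 3 (-0.17, -0.18 and -0.17). The interaction was 0.46 (SE 0.08), adjusted p = 0.000342.

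The HSP90 genes encode the chaperones that hold kinases and hormone receptors ready for activation. Hsp90ab1, the constitutive form, had 3766, 3903 and 3975 CPM in Trim47-/- after 5-FU, against 3329, 3319 and 3292 CPM in wild type after 5-FU, 3404, 3346 and 3357 CPM in untreated Trim47-/- and 3324, 3308 and 3336 CPM in untreated wild type. The Trim47-/- libraries after 5-FU stood above all 9 others. It was higher by 0.23 (SE 0.02) in Trim47-/- than in wild type after 5-FU, adjusted p = 5.27e-07 in edgeR's test, and rose by 0.20 (SE 0.02) with 5-FU in Trim47-/-. In wild type the value with 5-FU was 0.00 (SE 0.02), adjusted p = 0.86.

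Hsp90aa1, the more inducible form, had 760.4, 759 and 760.4 CPM in Trim47-/- after 5-FU, against 656, 646 and 646 CPM in wild type after 5-FU. Untreated, it had 637, 639 and 619.8 CPM in Trim47-/- and 659, 649 and 624 CPM in wild type. It was higher by 0.23 (SE 0.02) in Trim47-/- than in wild type after 5-FU, adjusted p = 2.85e-06 in edgeR's test, and rose by 0.27 (SE 0.02) with 5-FU in Trim47-/-. In wild type the response was 0.01 (SE 0.02), adjusted p = 0.664. The interactions were 0.21 (SE 0.02) for Hsp90ab1 and 0.25 (SE 0.03) for Hsp90aa1. The pseudogenes Gm12346 and Gm5844 share 41.8% and 29.9% of the 50-base windows of Hsp90aa1 and held 57.6% and 13.9% as many counts. Gm12346 averaged 448 ± 20.5 CPM in Trim47-/- after 5-FU, 360.2 ± 9.08 CPM in wild type after 5-FU, 366 ± 7.03 CPM in untreated Trim47-/- and 373 ± 5.06 CPM in untreated wild type.

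Hspd1 and Hspe1 encode HSP60 and HSP10, the barrel and the lid of the mitochondrial chaperonin. Hspd1 had 392, 396 and 396 CPM in Trim47-/- after 5-FU, against 277, 276 and 282 CPM in wild type after 5-FU. Untreated, it had 295, 299 and 285 CPM in Trim47-/- against 307, 298 and 301 CPM in wild type. It was the gene of the 10 with the largest log2 difference between genotypes after 5-FU, 0.50 (SE 0.02), adjusted p = 6.61e-09 in edgeR's test. It rose by 0.43 (SE 0.02) with 5-FU in Trim47-/- and fell by 0.12 (SE 0.02) in wild type, adjusted p = 0.000717, with an interaction of 0.55 (SE 0.03), adjusted p = 5.18e-08. The fall in wild type was not called when libraries were scaled by their totals (-0.02, adjusted p = 0.531).

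Hspe1 had 96.8, 99.5 and 100.2 CPM in Trim47-/- after 5-FU, against 81.3, 76.9 and 76.9 CPM in wild type after 5-FU. Untreated, it had 76.0, 71.7 and 68.9 CPM in Trim47-/- against 77.9, 80.9 and 78.7 CPM in wild type. It was higher by 0.33 (SE 0.04) in Trim47-/- than in wild type after 5-FU and rose by 0.45 (SE 0.04) with 5-FU in Trim47-/-, with adjusted p-values of 2.74e-05 and 1.65e-06 in edgeR's test. In wild type the response was -0.01 (SE 0.04), adjusted p = 0.794, and the interaction was 0.47 (SE 0.06), adjusted p = 3.02e-05. In untreated mice it was lower in Trim47-/- by 0.13 (SE 0.04), adjusted p = 0.0248, a call lost without untreated Trim47-/- replicate 2 or 3 or untreated wild type replicate 2 or 3 (-0.10 to -0.14). Hspd1 and Hspe1 overlap at their 5′ ends on opposite strands (55077835 to 55088243 and 55088132 to 55091307 of chromosome 1), and how strand was used in counting is not given in the sources used here. Hspd1-ps3, with 38.0% of the 50-base windows of Hspd1, averaged 132 ± 2.53 CPM in Trim47-/- after 5-FU, 94.3 ± 1.24 CPM in wild type after 5-FU, 100.5 ± 1.36 CPM in untreated Trim47-/- and 109 ± 1.05 CPM in untreated wild type.

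**Figure D4:**
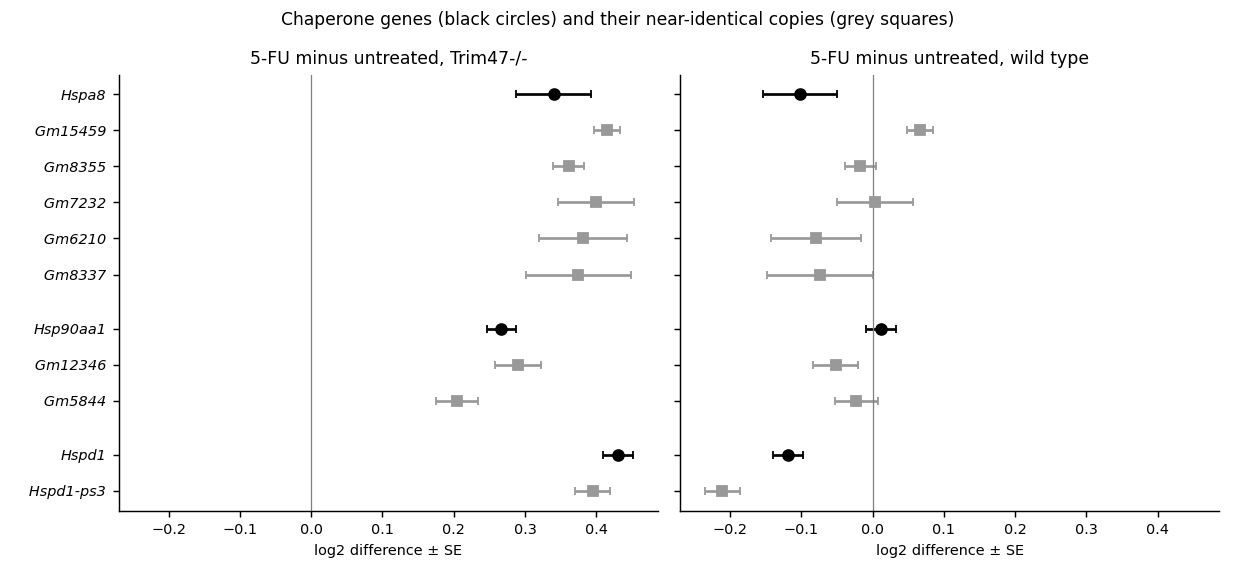
Log2 difference ± SE (x axis) with 5-FU in Trim47-/- (left) and in wild type (right), for 3 chaperone genes (black circles) and the copies listed beneath each (grey squares). In Trim47-/- every gene and copy shown lies right of 0, from 0.20 for Gm5844 to 0.43 for Hspd1, and in wild type the values run from -0.21 for Hspd1-ps3 to 0.07 for Gm15459.

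Hsf1, the regulator of this response, had 49.7, 51.6 and 51.7 CPM in Trim47-/- after 5-FU, against 37.9, 38.8 and 40.5 CPM in wild type after 5-FU. Untreated, it had 41.9, 58.9 and 43.6 CPM in Trim47-/-, against 51.5, 46.3 and 53.6 CPM in wild type. Untreated Trim47-/- replicate 2 stood above its group beyond counting noise (chi-square per degree of freedom 36.3), and the wild type libraries after 5-FU were the lowest of the 12. Hsf1 was higher by 0.38 (SE 0.11) in Trim47-/- than in wild type after 5-FU, adjusted p = 0.0114, and fell by 0.37 (SE 0.11) with 5-FU in wild type, adjusted p = 0.0152, in edgeR's test. In Trim47-/- the response was 0.08 (SE 0.11), adjusted p = 0.529, and without replicate 2 it was 0.25, adjusted p = 0.00583. The interaction of 0.45 (SE 0.15), adjusted p = 0.0269, was lost when any of 8 libraries was left out (0.0504 to 0.0634). Over 20 alternatives by edgeR or DESeq2, the test against a 1.5-fold change apart, its adjusted p was under 0.05 in 10 and ran up to 0.088. The wild type fall was lost without untreated wild type replicate 3 (-0.32, adjusted p = 0.0548) and under scaling by library totals (-0.27, adjusted p = 0.0576). Counts measure the RNA of HSF1, not its activity, which is set by trimer formation and phosphorylation of the protein.

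Partner genes of the chaperones were described from lists that were also chosen with earlier results known, and their counts stand beside 27.2% higher and 27.6% lower of all genes after 5-FU, and 17.6% higher and 15.4% lower in untreated mice. Of 31 tested partners of HSP70 and HSP40, 20 were higher and 4 lower in Trim47-/- than in wild type after 5-FU (median 0.19), and 3 were higher and 9 lower in untreated mice (median -0.08). Bag3, which hands HSP70 clients to autophagy, had 60.4, 58.2 and 57.2 CPM in Trim47-/- after 5-FU against 27.5, 27.8 and 25.7 CPM in wild type after 5-FU, a difference of 1.12 (SE 0.05, adjusted p = 7.64e-09 in edgeR's test), with 23.7, 23.4 and 22.4 CPM in untreated Trim47-/- and 23.5, 23.8 and 22.2 CPM in untreated wild type. Hspa4, an HSP110 relative, was higher by 0.45 (SE 0.02) in Trim47-/- than in wild type after 5-FU. It averaged 610 ± 8.70 CPM in Trim47-/- and 446 ± 7.16 CPM in wild type after 5-FU. In untreated mice the order was reversed, at 556 ± 12.9 CPM in Trim47-/- and 712 ± 8.38 CPM in wild type. Dnaja1, a farnesylated HSP40, fell by 0.92 (SE 0.03) with 5-FU in wild type and was lower by 0.37 (SE 0.03) in untreated Trim47-/- than in untreated wild type. Hspa4l moved the other way after 5-FU, being lower by 0.45 (SE 0.06) in Trim47-/-.

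Among 25 tested HSP90 cochaperones, 13 were higher and 2 lower in Trim47-/- than in wild type after 5-FU (median 0.18), and 2 were higher and 7 lower in untreated mice (median -0.06). Cacybp, which binds SGT1 and HSP90, was higher by 0.59 (SE 0.05), and Fkbp5, which lowers the hormone binding of the glucocorticoid receptor, was lower by 0.18. The cytosolic chaperonin TRiC and its feeder prefoldin, which fold actin and tubulin, had 11 of 17 tested genes higher and none lower after 5-FU (median 0.24), and 1 higher and 5 lower in untreated mice (median -0.04). Pfdn4 was higher by 0.71 (SE 0.08) after 5-FU and lower by 0.56 (SE 0.08) in untreated Trim47-/-. Cct8 was higher by 0.46 (SE 0.05) after 5-FU.

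In the mitochondrial list 10 of 22 tested genes were higher and 6 lower after 5-FU (median 0.12), and 3 were higher and 3 lower in untreated mice (median -0.02). The lower genes after 5-FU, and both untreated counts, were shares near or below those of all genes, which were 27.6% lower after 5-FU and 17.6% higher and 15.4% lower untreated. Grpel1, the nucleotide exchange factor of mitochondrial HSP70, was at 81.5, 81.9 and 82.7 CPM in Trim47-/- after 5-FU against 48.4, 50.9 and 51.5 CPM in wild type after 5-FU, higher by 0.71 (SE 0.03, adjusted p = 1.03e-08 in edgeR's test). Hspa9, mitochondrial HSP70 itself, was higher by 0.45 (SE 0.02). Dnaja3, its HSP40, and Clpx, a protease subunit, were lower by 0.32 (SE 0.09) and 0.22. Hspd1 and Hspe1, described above, had the direction of Grpel1 and Hspa9 and not that of Dnaja3.

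**Figure D5:**
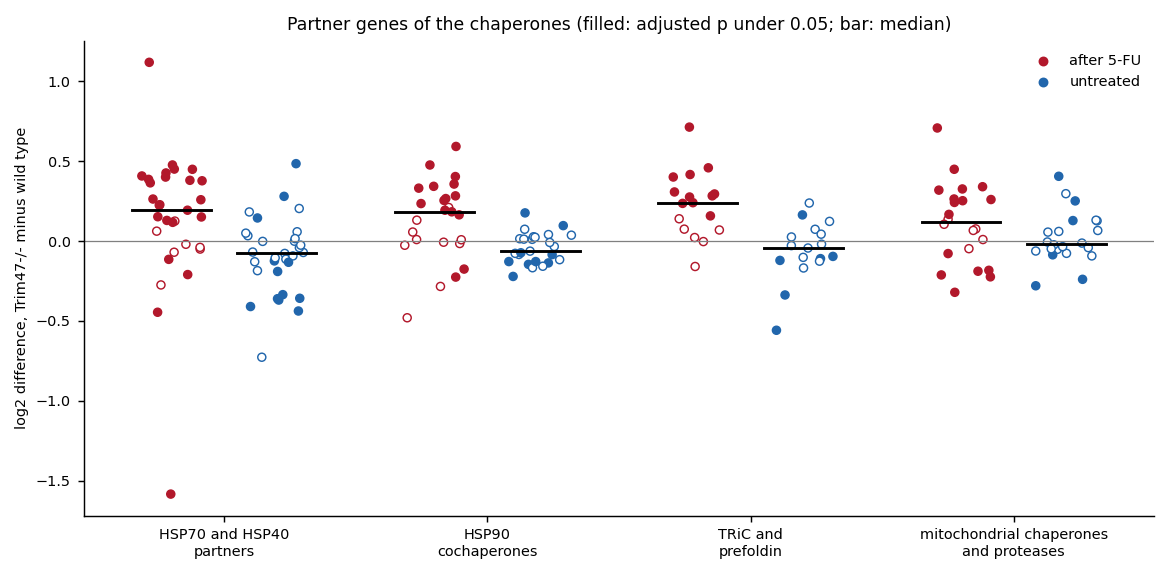
Log2 difference, Trim47-/- minus wild type (y axis), of each tested gene of 4 partner lists (x axis), after 5-FU in red and untreated in blue; filled points passed an adjusted p under 0.05 and bars are medians. Medians after 5-FU lie at 0.12 to 0.24 and untreated medians at -0.08 to -0.02; the lowest point is Hspa12b (-1.58), named after its value was seen, at a mean of 8.88 CPM over the libraries compared.

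Of 8 tested heat shock factors and regulators of HSF1, 4 were higher and 1 lower in Trim47-/- than in wild type after 5-FU (median 0.11), and 1 was higher and 3 lower in untreated mice (median 0.05), beside 27.2% and 27.6% of all genes after 5-FU and 17.6% and 15.4% untreated. Sirt1, the deacetylase known to prolong binding of HSF1 to DNA, was higher by 1.0 (SE 0.18) after 5-FU. A further list held 30 genes known as HSF1 targets. Of these, 14 are also in the lists of HSP70 and HSP40 partners, HSP90 cochaperones or small heat shock proteins. Overlap with the remaining lists was not counted. Of 29 tested targets, 20 were higher and 4 lower after 5-FU (median 0.34), and 4 higher and 13 lower in untreated mice (median -0.08). With 5-FU in wild type, 5 of the 29 were higher and 19 lower (median -0.31), beside 25.2% and 25.4% of all genes. Of the small heat shock proteins, 5 of 10 were tested and the list summed to 11.5 to 12.7 CPM in Trim47-/- after 5-FU, 12.8 to 15.1 CPM in wild type after 5-FU, 10.9 to 12.5 CPM in untreated Trim47-/- and 8.85 to 12.6 CPM in untreated wild type. After 5-FU 2 of the 5 were higher and 1 lower in Trim47-/-.

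Marker lists of blood cells moved in the same comparisons. Their counts after 5-FU stand beside 27.2% higher and 27.6% lower of all genes. After 5-FU, 0 of 20 genes of the LT-HSC list were higher and 18 lower in Trim47-/- than in wild type (median -1.04). The summed level was 2137 to 2189 CPM in Trim47-/- against 2834 to 3101 CPM in wild type. That list also holds Flt3, Cd34 and Cd48, which are low on such cells and make up much of the sum. They averaged 445, 727 and 87.7 CPM in Trim47-/- after 5-FU, and 546, 734 and 106 CPM in wild type after 5-FU. Neutrophil and progenitor granule genes were higher for 12 of 13 (sum 6619.8 to 6998 CPM in Trim47-/- against 4130.2 to 4207 CPM in wild type) and monocyte genes for 10 of 12 tested (1043 to 1072 CPM against 605 to 618 CPM), with no listed gene of either at 0. Erythroid genes were higher for 1 and lower for 7 of 13, and megakaryocyte genes lower for 7 of 9. Of the other lists, B cell genes were lower for 6 of 10, T and NK cell genes for 1 of 5, and endothelial and stromal genes for 6 of 9. Dendritic genes were higher for 2 and lower for 1 of 8. The T and NK cell and the dendritic counts were shares near or below those of all genes. Among eosinophil, basophil and mast cell genes 1 was higher and 4 were lower of 7.

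In untreated mice the LT-HSC, monocyte, erythroid, dendritic, and endothelial and stromal lists had medians of the opposite sign. Counts there stand beside 17.6% higher and 15.4% lower of all genes. Genes of the LT-HSC list were higher in Trim47-/- than in wild type for 10 of 20 and lower for 0 (3175 to 3326 CPM in Trim47-/- against 2707 to 2902 CPM in wild type). Flt3 and Cd34, which are low on such cells, make up part of that gap, at 915 against 711 CPM and 757 against 693 CPM on average. Cd48, also low on such cells, averaged 52.5 against 56.8 CPM. Monocyte genes were higher for 0 and lower for 5 of 12 (477 to 506 CPM in Trim47-/- against 652 to 660.2 CPM in wild type). Endothelial and stromal genes were higher for 5 and lower for 1 of 9, and dendritic genes higher for 1 and lower for 4 of 8. Neutrophil genes were higher for 7 and lower for 3 of 13 (3272 to 3326 CPM in Trim47-/- against 3335 to 3473 CPM in wild type), erythroid genes higher for 10 and lower for 1 of 13, and megakaryocyte genes lower for 7 of 9. With 5-FU in Trim47-/-, 4 genes of the LT-HSC list were higher and 11 lower, and all 13 neutrophil genes were higher. Of the monocyte genes 9 were higher and 1 lower, beside 29.6% higher and 30.8% lower of all genes. With 5-FU in wild type, 12 genes of the LT-HSC list were higher and 3 lower, and 10 neutrophil genes were higher and 0 lower. Of the monocyte genes 2 were higher and 6 lower, beside 25.2% higher and 25.4% lower of all genes. In the interaction, genes of the LT-HSC list were positive for 0 and negative for 18 of 20. Neutrophil genes were positive for 11 of 13 and monocyte genes for 10 of 12, beside 26.4% positive and 28.5% negative of all genes. The part of cell makeup in the chaperone differences, in the responses to 5-FU and in the interaction was not tested.

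Genes with levels most like those of Hspa8 over the 12 libraries were sought by Pearson correlation of log2 CPM. The 9286 candidates had 10 CPM or more on average. The 10 genes themselves and all Gm and Rik gene models were left out, and with them copies such as Gm15459 and Gm8355. Among the candidates, the levels most like those of Hspa8 were found for Ctss, Nol12, Psmb6, Nol11 and Ube2j1 (r = 0.95 to 0.965). For Hspa1a they were Igkv19-93, Acvr2a, Pnrc1, Igkv1-135 and Prkd2 (r = 0.988 to 0.994). The 12 libraries fall into 4 groups, and these values are descriptions with no test. Pnrc1, for example, averaged 314 CPM in Trim47-/- after 5-FU, 348 CPM in wild type after 5-FU, 611 CPM in untreated Trim47-/- and 614 CPM in untreated wild type.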

How the data were processed

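RNA was measured by stranded, paired-end, poly-A sequencing in 12 libraries, per the labels' protocols. The authors deposited 1 table of raw counts and FPKM for 28999 genes; GRCm38, edgeR, StringTie, HISAT2 and CASAVA 1.8 are listed, without roles, per the submitters' processing notes, and the sources used here do not give the counting tool or its use of strand. The deposited FPKM values divide counts by the summed length of a gene's distinct exons: the length implied by them lay within 0.1% of that sum for 97.6% of genes that had 50 or more counts in every library. Levels between genes were therefore recomputed per kilobase of non-overlapping exon (GENCODE M21).

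The tests used the deposited counts and edgeR 4.0.16 (R 4.3.3): TMM scaling, its default filter on low counts (16319 genes kept), 1 quasi-likelihood fit of the 4 groups of 3 libraries, and Benjamini-Hochberg adjustment over all genes, with a threshold of 0.05. CPM values use the same TMM scaling, and errors are SDs over 3 libraries. Near-identical copies are genes that share at least 5% of a gene's 50-base exon windows. Alternatives used DESeq2 1.42.0, other scalings, other filters, each library left out, and copies summed; library totals and summed copies were added after the data were seen. Same-numbered libraries did not deviate together (correlations -0.143 to 0.122 over 18 pairs), so numbers were not used as pairs.

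The 10 genes and the gene lists were chosen with earlier results of these data known. All 10 are reported; of the other lists, the text names from up to 3 higher and 3 lower genes per comparison, those with the largest change among genes that passed and had a mean of at least 10 CPM. Exceptions are marked where they occur, apart from Trim47 and the stem cell markers, which check the labels. Libraries of a group differed by more than counting noise (median chi-square per degree of freedom 1.03 to 1.10, against 0.693 for counting alone). Each was used as a separate library in the tests, but this spread cannot tell separate animals from technical repeats. Promoter sequences are RefSeq's, on GRCm38.p6.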

Additional observations from a re-analysis of the deposited data

Results flagged for a closer look

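The response to 5-FU differed between Trim47-/- and wild type for 8 of the 10 genes by the interaction term of edgeR's quasi-likelihood fit, with Benjamini-Hochberg adjustment over all genes, where 54.9% of all genes also passed. Hspd1 had the largest positive value, 0.55 (adjusted p = 5.18e-08), followed by Hspe1 at 0.47, Hsph1 at 0.46, Hsf1 at 0.45 and Hspa8 at 0.44 on the log2 scale. Hsp90aa1 had 0.25 and Hsp90ab1 0.21. Dnajb1 was the exception in sign, at -0.60. Of these, Hsf1 had an adjusted p of 0.0269 that ran from 0.000139 to 0.0634 as single libraries were left out. Over 20 alternatives by edgeR or DESeq2, the test against a 1.5-fold change apart, it was under 0.05 in 10 and ran up to 0.088.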

How the results depend on the processing

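Over 1090 alternatives of single-gene results, 989 kept direction and side of the threshold, 58 lost a call (29 of them in the test against a 1.5-fold change), 17 gained one and 26 changed sign, none of the last for a called result. Against a 1.5-fold change, 0 of the 10 genes passed between genotypes in untreated mice and 0 after 5-FU, 3 passed with 5-FU in Trim47-/- and 2 in wild type, and 0 in the interaction, with 450, 1415, 2422, 1602 and 2913 of all genes. In untreated mice, an adjusted p under 0.01 left 1 gene of the 10 and 3391 of all genes, and summing copies gave 5 of the 10. Leaving out single libraries gave 1 to 5 of the 10 genes in untreated mice (5 without wild type 5-FU replicate 3 and 1 without untreated wild type replicate 3), 8 to 10 after 5-FU, 8 to 9 with 5-FU in Trim47-/-, 5 to 7 in wild type and 7 to 9 in the interaction, and over all genes 4551 to 5436, 8222 to 8929, 9177 to 9914, 7522 to 8381 and 8556 to 8684. With the replicate block, 3, 9, 8, 6 and 8 of the 10 passed in that order of comparisons, and no call changed.

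The sign changes were of values that had not passed, and 1 of them passed with its new sign (Hsp90ab1, below). Without the filter on low counts, Hspa1b was 0.00712 between untreated genotypes, Hsp90ab1 0.00301 with 5-FU in wild type and Hsph1 -0.0249 with 5-FU in Trim47-/-. With only the 6 libraries compared, Hsp90ab1 was -0.00243 between untreated genotypes, and with copies summed Hsp90aa1 was -0.0124 with 5-FU in wild type. With library totals in place of TMM, the median of all genes with 5-FU in wild type was 0.11 (0.01 under TMM), and in the interaction -0.12 (-0.03). Higher genes then made up 64.5% of calls with 5-FU in wild type (49.8% under TMM) and 39.4% between genotypes after 5-FU (49.6%). Under it Hspa1b was 0.0169 between untreated genotypes, and with 5-FU in wild type Hspa8 was 0.000449, Hspe1 0.0879 and Hsp90ab1 0.10 (adjusted p = 0.000347 in edgeR's test). The cause was not tested. With single libraries left out, values ran between untreated genotypes from -0.0267 to 0.0339 for Hspa1b, -0.000408 to 0.0291 for Hsp90ab1 and -0.234 to 0.0264 for Hsf1, with 5-FU in wild type from -0.0108 to 0.0275 for Hsp90aa1 and -0.0389 to 0.00214 for Hspe1, with 5-FU in Trim47-/- from -0.0293 to 0.0693 for Hsph1 and -0.00832 to 0.253 for Hsf1, and in the interaction from -0.122 to 0.00631 for Hspa1a.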
